A study of Macaca fascicularis with 16 samples.

Results

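Indian hedgehog is a signal that the endometrial epithelium sends to the stroma beneath it, and 8 genes of this route were followed here: the ligand IHH, its receptor PTCH1, the decoy receptor HHIP, the signal transducer SMO, the transcription factors GLI1, GLI2 and GLI3, and the stromal nuclear receptor NR2F2, also called COUP-TFII. The members were all probe sets whose only gene symbol in the annotation of the array platform is 1 of these names. That gave 13 of the 52865 probe sets, for 7 of the 8 genes. No probe set carries the symbol GLI3 alone, so GLI3 was not analysed here. Of the 13 probe sets, 9 were bright enough to test, with at least 1 for each of the 7 genes: 2 for IHH, 2 for NR2F2 and 1 for each of PTCH1, HHIP, SMO, GLI1 and GLI2. The other 4, namely 1 of PTCH1, 2 of HHIP and 1 of GLI2, were dim.

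In the hedgehog route a cell releases the ligand, which binds PTCH1 on a neighbouring cell. Unbound PTCH1 holds back SMO, and binding releases it, so that SMO lets the GLI factors switch on their targets. PTCH1, HHIP and GLI1 are themselves targets of the signal and are widely read as its gauges, while HHIP and PTCH1 also limit it by capturing ligand. In the mouse uterus the epithelium makes IHH under progesterone and the stroma answers with NR2F2, which takes part in preparing the tissue for an embryo.

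The tissue was endometrium from cynomolgus macaques (Macaca fascicularis), 16 females past menopause, with 1 single-colour Affymetrix array per animal. The animals had been assigned at random to 4 arms of 4 and were treated for 4 months. Control animals received placebo, and the estradiol arm received micronized estradiol, an estrogen, at a low dose of 0.25 mg for every 1800 kcal. The tamoxifen arm received tamoxifen, a drug that blocks the estrogen receptor in some tissues and activates it in others, at 20 mg for every 1800 kcal, and the combination arm received both at these doses. All 16 animals were postmenopausal, the labels name no progestogen in any arm, and ages are not given in the sources used here. The comparisons ask what each drug does to the endometrium and what tamoxifen does when added to low-dose estradiol. Each animal gave 1 sample of whole endometrium, in which fewer cells of a type and less RNA per cell cannot be told apart.

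Signals are the deposited intensities, scaled so that the trimmed mean was 250.0 on every array, with medians from 58.7 to 70.3. A change is a difference of mean log2(signal + 4.80), and a fold is taken on the same scale, which understates the change of dim probe sets. The standard error (SE), the 95% confidence interval and the adjusted p came from limma, fitted to all 16 arrays with Benjamini-Hochberg adjustment over 31660 probe sets. A gene was called higher or lower at an adjusted p under 0.05. Markers of epithelium and stroma were present on every array, and EPCAM had a mean log2 signal of 9.47 in controls. Estradiol 4 and tamoxifen 1 stood apart in smooth muscle markers, with mean log2 deviations over 10 genes of -3.41 and -0.87 against 0.10 to 0.30 in controls. The calls against control that changed without these arrays are given below, for the listed genes as counts. The shares of all genes called in that fit are not given here, so counts from it are descriptions only. Neither array enters the change of the combination against control. They bear on its calls only through the spread that limma estimates over all arms.

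IHH was higher in each drug arm than in control. Its first probe set read 192.3, 178.5, 377.2 and 142.3 on the 4 control arrays and 848.5, 1367.6, 665.3 and 1380.4 with estradiol. With tamoxifen it read 2137.4, 871.6, 1441.0 and 1575.6, and with the combination 1758.7, 1700.3, 1567.6 and 1572.1. Every treated array lay above every control array. The combination arrays lay close together, with an SD of 0.083 on the log2 scale, against 0.59 in control, 0.52 with estradiol and 0.54 with tamoxifen.

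The rise of IHH came to 2.27 with estradiol (SE 0.30, adjusted p = 0.000172), a 4.81-fold difference. With tamoxifen it was 2.76 (adjusted p = 0.000256), or 6.78-fold, and with the combination 2.96 (adjusted p = 8.62e-05), or 7.78-fold. Ranked from the highest change among 10706 genes, IHH stood 56th for estradiol, 22nd for tamoxifen and 25th for the combination. The second IHH probe set followed the first across the 16 arrays with a correlation of 0.987. It read 131.7 to 186.7 in control, 317.7 to 555.6 with estradiol, 378.3 to 976.5 with tamoxifen and 650.8 to 730.0 with the combination. Its changes were 1.50 (SE 0.24, adjusted p = 0.000505), 1.99 (adjusted p = 0.000301) and 2.13 (adjusted p = 0.000151). Both probe sets were called in all 8 fits that left out 1 array of a comparison, in each of the 3 comparisons with control.

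**Figure D1:**
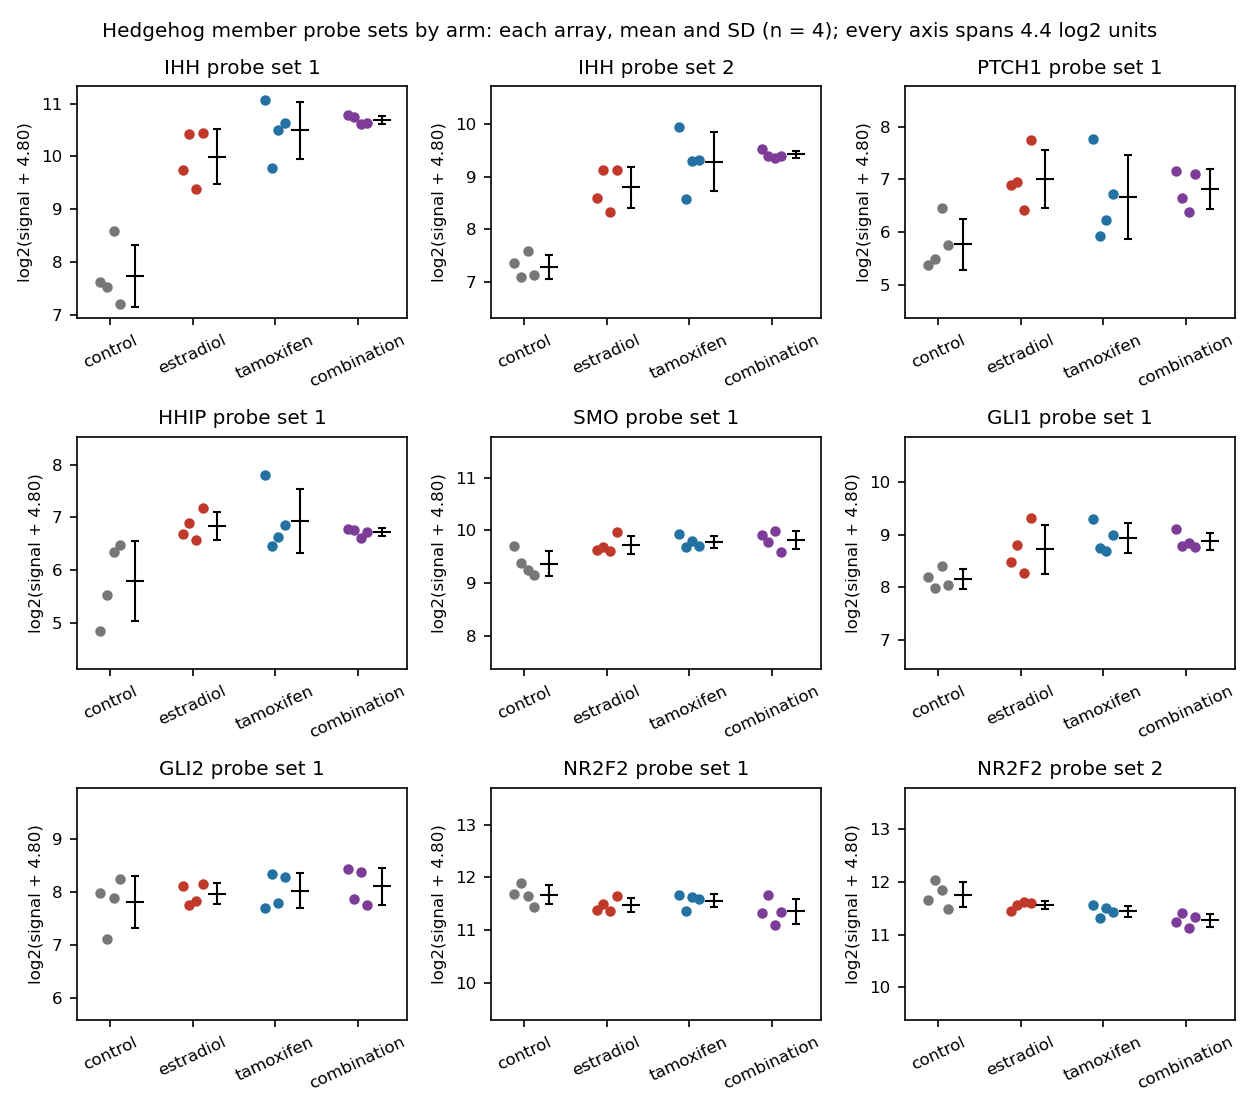
Log2(signal + 4.80) of the 9 tested probe sets on each of the 16 arrays, by arm. Points are arrays, and the bar beside them is the arm's mean with its SD (n = 4). Both IHH probe sets have all treated arrays above all control arrays, while PTCH1, HHIP, SMO and GLI1 lie higher with overlap in at least 1 arm, and GLI2 overlaps throughout.

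Of the 7 member genes, each followed through its brightest probe set, 4 were called higher with estradiol: IHH, PTCH1, HHIP and GLI1. In that comparison 16.5% of all genes tested were called higher and 13.2% lower. With tamoxifen 4 members were higher, IHH, HHIP, SMO and GLI1, where 8.59% of all genes were higher and 7.64% lower. With the combination 3 were higher, IHH, SMO and GLI1, where 10.6% of all genes were higher and 9.09% lower. No member was called lower through its brightest probe set. For NR2F2 that choice was close, with mean log2 signals of 11.515 and 11.507, and the second probe set was called lower with the combination. The median change of the 7 genes was 0.56, 0.78 and 0.71 in the 3 arms, against 0.012, -0.018 and -0.013 over all genes. The members were chosen with earlier results of these data known, so these counts and medians are descriptions and no test of the group. The 3 comparisons share the same 4 control arrays and are not independent of each other.

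PTCH1, the receptor, read 36.7, 40.3, 82.8 and 49.4 in control and 113.6, 119.6, 80.9 and 210.4 with estradiol. It read 213.0, 56.4, 70.4 and 101.4 with tamoxifen and 137.5, 94.9, 78.4 and 132.8 with the combination. Control 3, which also had the highest IHH of its arm, reached into the range of each treated arm, and estradiol 4 and tamoxifen 1 were the highest of theirs. PTCH1 rose with estradiol, by 1.23 (SE 0.37, adjusted p = 0.0245) or 2.35-fold. The change was 0.90 with tamoxifen (95% interval 0.10 to 1.69, adjusted p = 0.123) and 1.05 with the combination (0.26 to 1.84, adjusted p = 0.0688), and neither was called. The estradiol call was lost without control 1, control 2 or estradiol 4, with adjusted p up to 0.0749. Without estradiol 4 and tamoxifen 1 together, the combination call was gained (adjusted p = 0.0149). Its change was still 1.05, since neither array is in that comparison and only the shared spread differed. The combination call was also gained without control 3 (change 1.28, adjusted p = 0.0433). With only the control and combination arms fitted it was gained too (change 1.05, adjusted p = 0.0292). Without tamoxifen 1 the tamoxifen change was 0.53. The second PTCH1 probe set, which was dim, correlated with the first at 0.44 over the 16 arrays. It read 2.85 to 36.4 in control, 9.18 to 20.3 with estradiol, 9.87 to 28.1 with tamoxifen and 8.32 to 24.4 with the combination, so that all arms overlapped. With no filter its changes were 0.30, 0.63 and 0.25, none of them called by limma (adjusted p = 0.752, 0.475 and 0.814).

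HHIP, the decoy that binds hedgehog ligand at the cell surface, read 23.8, 41.3, 76.1 and 84.4 in control. It read 98.2, 114.6, 90.1 and 140.8 with estradiol, 219.7, 82.6, 94.5 and 111.2 with tamoxifen, and 104.9, 103.4, 92.5 and 101.0 with the combination. All estradiol and combination arrays lay above all controls, and tamoxifen 2 lay just below control 4. HHIP rose by 1.04 with estradiol (SE 0.33, adjusted p = 0.0318) and by 1.14 with tamoxifen (SE 0.33, adjusted p = 0.0340). The combination change of 0.92 was not called (95% interval 0.21 to 1.63, adjusted p = 0.0726), but was without control 4 (adjusted p = 0.0375). It was also called without estradiol 4 and tamoxifen 1 (adjusted p = 0.0373), with the change still 0.92 and only the shared spread different. Without estradiol 4 and tamoxifen 1 the tamoxifen change was 0.85 and its call was lost (adjusted p = 0.0929). The estradiol call was lost in 5 of 8 fits without 1 array (control 1 or 2, estradiol 1, 2 or 4) and the tamoxifen call in 4 of 8 (control 1 or 2, tamoxifen 1 or 4). The 2 dim HHIP probe sets followed the brighter one with correlations of 0.82 and 0.81 over the 16 arrays. The second of the gene's 3 probe sets read 13.4 to 23.1 in control, 29.2 to 46.7 with estradiol, 17.2 to 53.4 with tamoxifen and 16.8 to 25.9 with the combination. The third read 0.44 to 2.92, 7.56 to 17.5, 1.98 to 28.3 and 6.66 to 16.5. Both were clear of control with estradiol and overlapped it with tamoxifen, and with the combination the second overlapped and the third did not. With no filter on dim probe sets, limma called both higher with estradiol (adjusted p = 0.0449 and 0.0257) and neither in the other arms. There the second changed by 0.87 (adjusted p = 0.0777) and 0.34 (adjusted p = 0.528), and the third by 1.17 (adjusted p = 0.0876) and 1.28 (adjusted p = 0.0562). In that same fit the first HHIP probe set lost its tamoxifen call (adjusted p = 0.0504). SMO lost its tamoxifen call there (adjusted p = 0.0691) and GLI1 its estradiol call (adjusted p = 0.0697).

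SMO, which passes the signal on inside the cell, differed by less. It read 823.6, 661.1, 601.6 and 562.6 in control, 789.8, 815.6, 775.1 and 1003.8 with estradiol, 975.7, 816.2, 885.2 and 825.8 with tamoxifen, and 952.9, 871.1, 1013.4 and 767.3 with the combination. Control 1 lay inside the range of every treated arm, while the other 3 controls lay below all treated arrays. SMO rose by 0.41 with tamoxifen (SE 0.13, adjusted p = 0.0462), or 1.33-fold, and by 0.45 with the combination (SE 0.13, adjusted p = 0.0285), or 1.36-fold. The estradiol change was 0.36 (95% interval 0.08 to 0.63, adjusted p = 0.0529). These values lie near the threshold: the tamoxifen call was kept in 1 of 8 fits without 1 array (that without control 1) and the combination call in 3 of 8 (those without control 1, control 2 or combination 4). Without estradiol 4 and tamoxifen 1 the tamoxifen call was lost (adjusted p = 0.0883).

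GLI1, a transcription factor that hedgehog signalling itself induces, read 288.7, 248.5, 334.4 and 259.1 in control. With estradiol it read 351.0, 444.4, 304.6 and 633.2, with tamoxifen 627.5, 424.1, 410.4 and 505.3, and with the combination 548.4, 433.5, 454.9 and 427.8. All tamoxifen and combination arrays lay above all controls, and estradiol 3 lay below control 3. GLI1 rose by 0.78 with tamoxifen (SE 0.20, adjusted p = 0.0185), or 1.71-fold, by 0.71 with the combination (SE 0.20, adjusted p = 0.0240) and by 0.56 with estradiol (SE 0.20, adjusted p = 0.0485). The estradiol value leaned on estradiol 4: without it the change was 0.36 (adjusted p = 0.148), and the call was also lost without control 1, 2 or 4 or estradiol 2. With estradiol 4 and tamoxifen 1 both left out the change was also 0.36 (adjusted p = 0.103), with no call. The tamoxifen call was lost without tamoxifen 1 (adjusted p = 0.0593), and the combination call without control 2, control 4 or combination 1, with adjusted p up to 0.0752.

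GLI2, which carries much of the activating signal to hedgehog targets, was not called in any arm. It read 132.8 to 299.5 in control, 211.8 to 279.1 with estradiol, 202.7 to 320.7 with tamoxifen and 211.5 to 343.0 with the combination, so that all arms overlapped. Its changes were 0.16 (95% interval -0.35 to 0.67, adjusted p = 0.669), 0.22 (-0.28 to 0.73, adjusted p = 0.576) and 0.31 (-0.20 to 0.82, adjusted p = 0.413). These intervals reach past the changes seen for SMO. The second GLI2 probe set was dim, at 1.86 to 25.1 over all arrays, and overlapped between all arms.

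NR2F2, the stromal receptor gene that IHH switches on in the mouse uterus, did not rise. Its first probe set read 3296.6, 3801.8, 3220.0 and 2785.5 in control and 2652.0, 2899.3, 2616.8 and 3200.6 with estradiol. It read 3233.0, 2641.3, 3163.5 and 3057.1 with tamoxifen and 2559.4, 3234.0, 2180.8 and 2608.6 with the combination, and every treated arm overlapped control. Its changes were -0.20 (95% interval -0.46 to 0.06, adjusted p = 0.245), -0.11 (-0.37 to 0.15, adjusted p = 0.585) and -0.31 (-0.57 to -0.06, adjusted p = 0.0916). The intervals leave room for a rise of at most 0.15, on the log2 scale, in these 3 comparisons.

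The second NR2F2 probe set went further down with the combination. It read 3211.3, 4185.9, 3681.2 and 2861.1 in control, 2780.1, 3023.1, 3128.6 and 3100.9 with estradiol, 2999.6, 2533.9, 2884.0 and 2735.6 with tamoxifen, and 2403.8, 2715.9, 2226.3 and 2563.1 with the combination. All combination arrays lay below all controls, and the signal fell by 0.48 (SE 0.11, adjusted p = 0.00784), which was called in all 8 fits without 1 array. The estradiol change of -0.20 (adjusted p = 0.188) and the tamoxifen change of -0.31 (adjusted p = 0.0663) were not called, though the latter was without control 4 (adjusted p = 0.0235). The probe sets correlated at 0.81 over the 16 arrays, so they disagree on the combination call but not on its sign. Without combination 2 the first probe set was also called lower with the combination (change -0.41, adjusted p = 0.0349).

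**Figure D2:**
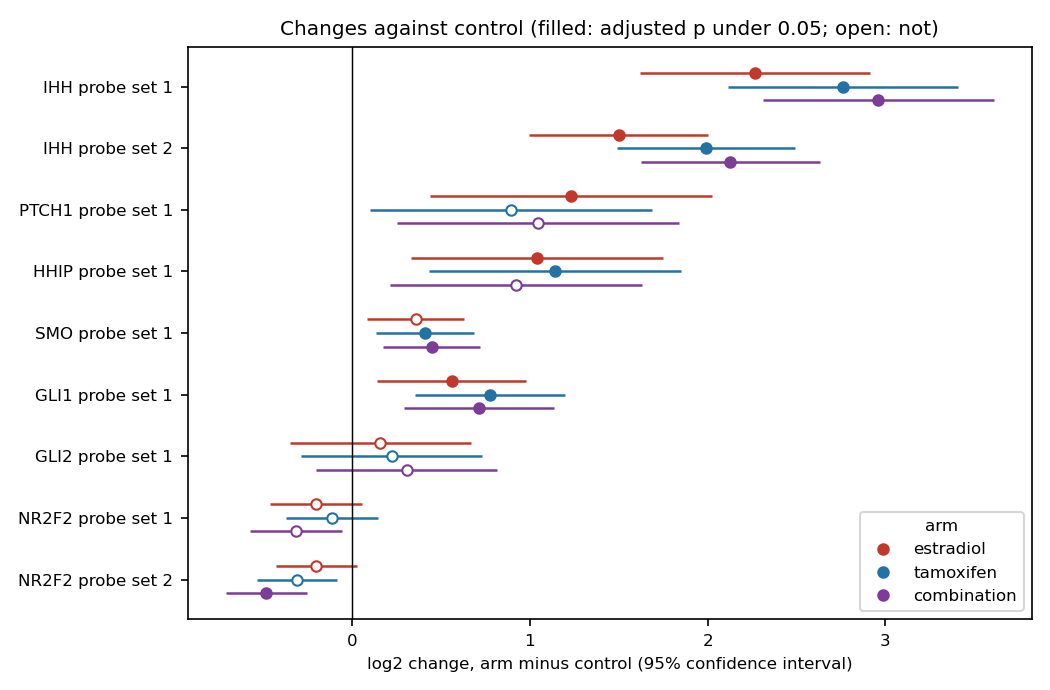
Log2 change of each tested member probe set in the estradiol, tamoxifen and combination arms, each minus control, with its 95% confidence interval from limma. Filled points have an adjusted p under 0.05. IHH lies farthest to the right at 2.27, 2.76 and 2.96 for its first probe set, and the second NR2F2 probe set with the combination, at -0.48, is the only filled point below 0.

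Counted by separation of arrays, 2 members had all 4 estradiol arrays above all 4 controls (IHH and HHIP), where 15.4% of all genes did. With tamoxifen there were also 2, IHH and GLI1, against 11.2% of all genes. With the combination there were 3, IHH, HHIP and GLI1, against 15.2%.

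The drug arms were then compared with each other, and 0 of the 7 member genes were called by limma in any of the 3 comparisons. Over all genes 1.33% were called for the combination against estradiol, 0.710% for tamoxifen against estradiol and 0.00% for the combination against tamoxifen, where 1283 probe sets had an unadjusted p under 0.05. Through the brightest probe sets, 1 member had an unadjusted p under 0.05, and the second NR2F2 probe set did as well, both in the combination against estradiol. The first IHH probe set was there 0.69 higher (95% interval 0.047 to 1.34, adjusted p = 0.278). All 4 combination arrays lay above all 4 estradiol arrays. IHH in the second probe set was 0.63 higher (0.12 to 1.13, adjusted p = 0.204), again with no overlap. IHH was 0.50 higher with tamoxifen than with estradiol (-0.15 to 1.14, adjusted p = 0.529), and the combination differed from tamoxifen by 0.20 (-0.45 to 0.85). For PTCH1 the combination differed from estradiol by -0.19 (-0.98 to 0.61) and for GLI1 by 0.15 (-0.27 to 0.57). The second NR2F2 probe set was 0.28 lower on the log2 scale in the combination than with estradiol (change -0.28, 95% interval -0.51 to -0.056, adjusted p = 0.204), with no overlap of arrays.

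The design crosses the drugs, so an interaction could be tested: the change with both drugs minus the sum of the changes with each alone. IHH was the 1 member called. Its interaction was -2.07 (SE 0.43, adjusted p = 0.0101) in the first probe set and -1.37 (SE 0.33, adjusted p = 0.0210) in the second, so that both drugs together gave less than the sum of their separate changes. Over all genes 11.3% were called for this term. HHIP had -1.26 (95% interval -2.26 to -0.26, adjusted p = 0.102), PTCH1 -1.08 (-2.20 to 0.04, adjusted p = 0.211) and GLI1 -0.62 (-1.22 to -0.03, adjusted p = 0.172). GLI2 had -0.08 (-0.80 to 0.64) and the first NR2F2 probe set -0.0016 (-0.37 to 0.36).

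Animals of 1 arm differed in IHH, and the other members were compared with it within arms, as deviations from the arm means over the 16 arrays. The combination arm adds little to a Pearson r with IHH. Its IHH values had an SD of 0.083, against 0.52 to 0.59 in the other arms. PTCH1 followed IHH with a Pearson r of 0.78 (permutation within arms, p = 0.00239, adjusted over 6 members p = 0.00717) and a Spearman rho of 0.76 (permutation p = 0.00084, adjusted p = 0.00426). GLI1 followed with an r of 0.78 (permutation p = 0.00169, adjusted p = 0.00717) and a rho of 0.84 (permutation p = 0.00142, adjusted p = 0.00426). Arrays that were high in the ligand for their arm thus tended to be high in receptor and transcription factor. The share of all genes that follow IHH this closely within arms was not tested. The r values are therefore not read as particular to the hedgehog route. Genes outside the route, picked for their likeness to IHH and described further below, had similar within-arm r. These were 0.83 for NEFH, 0.79 for ATP6V0A4, 0.90 for FRAS1, 0.79 for FOXA2 and 0.77 for TOM1.

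The other members did not pass the adjusted test over all 16 arrays. HHIP had an r of 0.51 (permutation adjusted p = 0.203) and a rho of 0.64 (adjusted p = 0.0628), NR2F2 an r of 0.47 (adjusted p = 0.130) and a rho of 0.53 (adjusted p = 0.0628). SMO had an r of 0.31 (permutation adjusted p = 0.392) and a rho of 0.30 (adjusted p = 0.363), and GLI2 an r of -0.17 (adjusted p = 0.591) and a rho of -0.21 (adjusted p = 0.439). Some of these values turned on 1 control array. Leaving out control 4 gave HHIP an r of 0.82 (permutation adjusted p = 0.0137), beside 0.80 for GLI1. Leaving out control 3 gave SMO 0.56 (permutation adjusted p = 0.0265) and NR2F2 0.60 (adjusted p = 0.0211), and leaving out control 2 gave NR2F2 0.59 (adjusted p = 0.0142).

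The array deviating most in IHH was control 3, at 0.85 above its arm's mean, followed by tamoxifen 2, at -0.72. Without these 2 arrays r was 0.65 for PTCH1 (permutation adjusted p = 0.0690) and 0.86 for GLI1 (adjusted p = 0.0442), and SMO and NR2F2 then passed at 0.58 and 0.51 (adjusted p = 0.0442 for each). Without estradiol 4 and tamoxifen 1 it was 0.71 for PTCH1 (permutation adjusted p = 0.0536) and 0.78 for GLI1 (adjusted p = 0.0370). Thus the relation with GLI1 passed with either pair of arrays left out and that with PTCH1 did not. All points share the scaling of their array and its mix of cells.

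**Figure D3:**
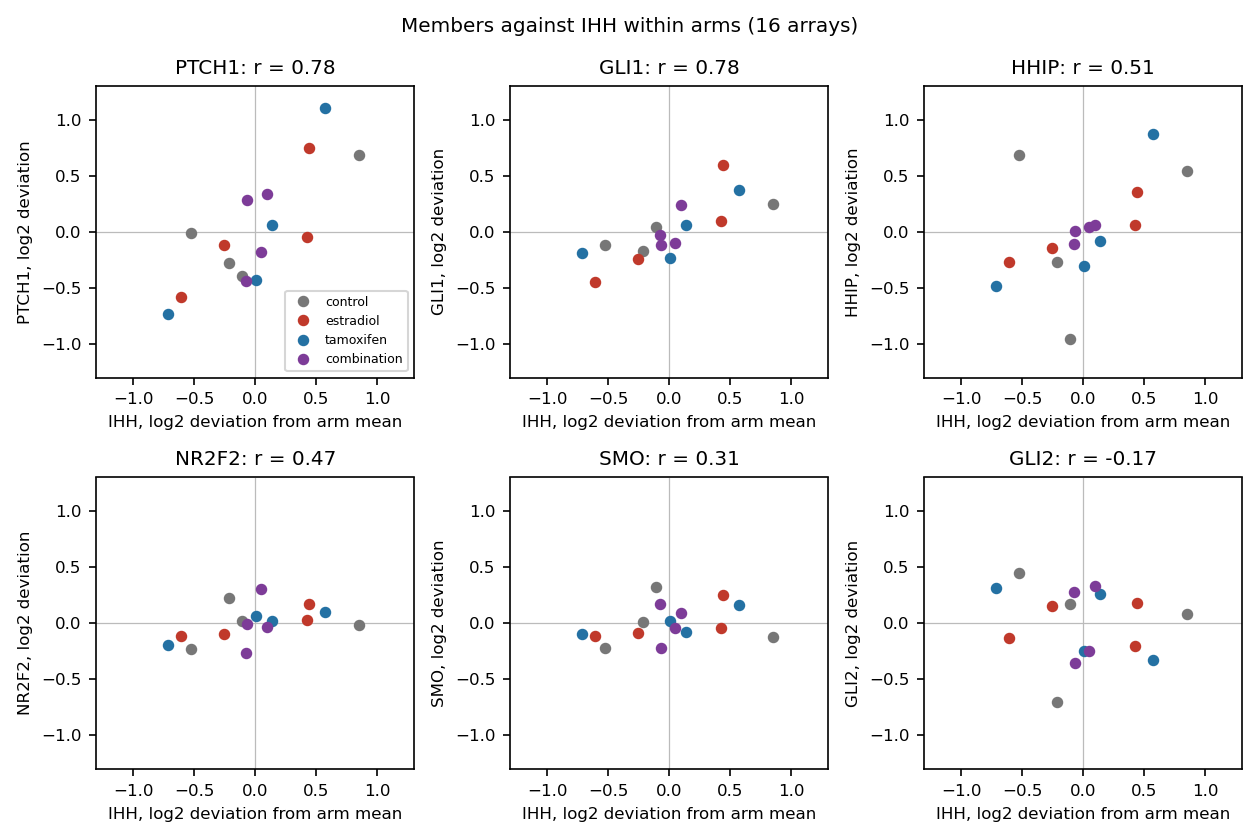
Deviation of each member from its arm mean against that of IHH, in log2 units, on the 16 arrays and by arm. PTCH1 and GLI1 rise along with IHH at r = 0.78 each, while the r of HHIP, NR2F2, SMO and GLI2 runs from 0.51 to -0.17.

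Cell type markers moved with the arms as well. For the counts of this and the next marker lists, the shares over all genes were 16.5%, 8.59% and 10.6% higher with estradiol, tamoxifen and the combination. The shares lower were 13.2%, 7.64% and 9.09%. Of 8 tested epithelial markers, 5 rose with estradiol, 3 with tamoxifen and 5 with the combination, and none fell. EPCAM, a surface protein of epithelial cells, rose by 1.23 (adjusted p = 0.0109), 1.15 (adjusted p = 0.0275) and 1.47 (adjusted p = 0.00703). CD24, the other of the 2 brightest, changed by 1.38 (adjusted p = 0.00841), 0.98 (adjusted p = 0.0674) and 1.05 (adjusted p = 0.0467). The summed signal of the list ran from 4055 to 4546 in control, 6724 to 12261 with estradiol, 5539 to 11176 with tamoxifen and 6457 to 8347 with the combination. No marker of the list was at 0, and CDH1 and KRT7 were too dim to test.

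Of 5 gland transcription factor genes, 4 rose in each arm, among them EHF by 1.56 (adjusted p = 0.00168), 2.08 (adjusted p = 0.000798) and 2.31 (adjusted p = 0.000301). Of 11 stromal markers, 8 rose with estradiol and 5 with each of tamoxifen and the combination. COL1A2, a chain of fibrillar collagen, rose by 1.68, 1.39 and 1.42 (adjusted p at most 0.000252), while VIM, the filament protein vimentin of stromal cells, changed by 0.02, 0.05 and -0.22 with no call. Summed stromal signal ran from 33692 to 37091 in control and from 40791 to 62387 over the treated arrays. Leaving out estradiol 4 and tamoxifen 1 left 5, 2 and 5 epithelial, 4, 4 and 4 gland and 8, 5 and 5 stromal markers higher, with 1 stromal marker lower with the combination. EPCAM was then not called with tamoxifen (adjusted p = 0.0700). The largest changes were 2.10, 1.83 and 2.21 among the epithelial markers and 1.80, 2.15 and 2.31 among the gland genes. IHH changed by 2.27, 2.76 and 2.96 in its first probe set and by 1.50, 1.99 and 2.13 in its second. The part of cell composition in the members' changes was not tested.

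Markers of other cells gave fewer calls. Of 10 smooth muscle markers 1 fell with estradiol and 0 were called in the other arms, and the brightest, TAGLN and MYH11, changed by -0.88 and -1.38 with estradiol without a call (adjusted p = 0.275 and 0.195). Of 7 endothelial markers 3, 1 and 1 fell, including VWF by 0.98 with estradiol (adjusted p = 0.00619) and PECAM1 by 0.63 (adjusted p = 0.0462). Of 5 leukocyte markers 1, 2 and 2 fell, with PTPRC, the pan-leukocyte antigen CD45, down by 1.52 with tamoxifen (adjusted p = 0.0224) and by 1.58 with the combination (adjusted p = 0.0165), while CD68 changed by -0.19, -0.06 and -0.01 with no call. Of 4 pericyte markers 1 fell with estradiol and 1, MCAM, rose with the combination by 0.86 (adjusted p = 0.0485), while NOTCH3 changed by 0.27, 0.27 and 0.44 with no call. None of 3 tested markers of ciliated cells was called, with CAPS at 0.91, 1.15 and 1.35 (adjusted p at least 0.0729) and RSPH1 at -0.24, 0.86 and 0.90. When estradiol 4 and tamoxifen 1 were left out, 2, 2 and 4 smooth muscle markers were higher and 2, 0 and 0 lower in the 3 arms, and 0, 1 and 3 leukocyte markers were lower. Endothelial markers were then lower in 2, 0 and 1 cases, pericyte markers higher in 1, 1 and 2 and lower in 1, 0 and 1, and 1 ciliated marker, CAPS, was higher with the combination (adjusted p = 0.0336).

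Genes of cell division were called with estradiol alone against control. All 6 tested rose with estradiol, including MKI67 by 1.50 (adjusted p = 0.00156), CCNB1 by 2.06 (adjusted p = 0.000858) and AURKA by 0.86 (adjusted p = 0.00631). None of the 6 was called with tamoxifen or the combination, where MKI67 changed by -0.07 and 0.12, though 1 was called higher with the combination without estradiol 4 and tamoxifen 1. Between drug arms, 2 of the 6 were lower with the combination than with estradiol and 1 with tamoxifen than with estradiol, where no hedgehog member was called. With estradiol 4 and tamoxifen 1 left out, 0 and 1 of the 6 were lower in these comparisons.

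Within arms, the epithelial score had an r of 0.65 with IHH, 0.66 with PTCH1 and 0.66 with GLI1, which became 0.49, 0.11 and 0.094 without estradiol 4 and tamoxifen 1. The gland score had an r of 0.74 with IHH, 0.70 with PTCH1 and 0.77 with GLI1, and 0.67, 0.20 and 0.48 without those arrays. The stromal score had an r of 0.27 with IHH, 0.044 with PTCH1 and 0.15 with GLI1, and 0.64, 0.68 and 0.86 without them. For smooth muscle the values were -0.48, -0.63 and -0.79, and -0.48, -0.17 and -0.18 without them. These are descriptions over 16 or 14 arrays with no test, and those of PTCH1 and GLI1 turn on the 2 arrays. The r of IHH with the stromal score turns on them as well. The ratio of 3' to 5' signal of actin, a gauge of RNA integrity, was also higher in control, at a mean log2 of 0.92 ± 0.11 (SD, n = 4) against 0.57 ± 0.18, 0.52 ± 0.043 and 0.55 ± 0.075 (SD, n = 4 each) in the treated arms, and its part in the members' changes was not tested.

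**Figure D4:**
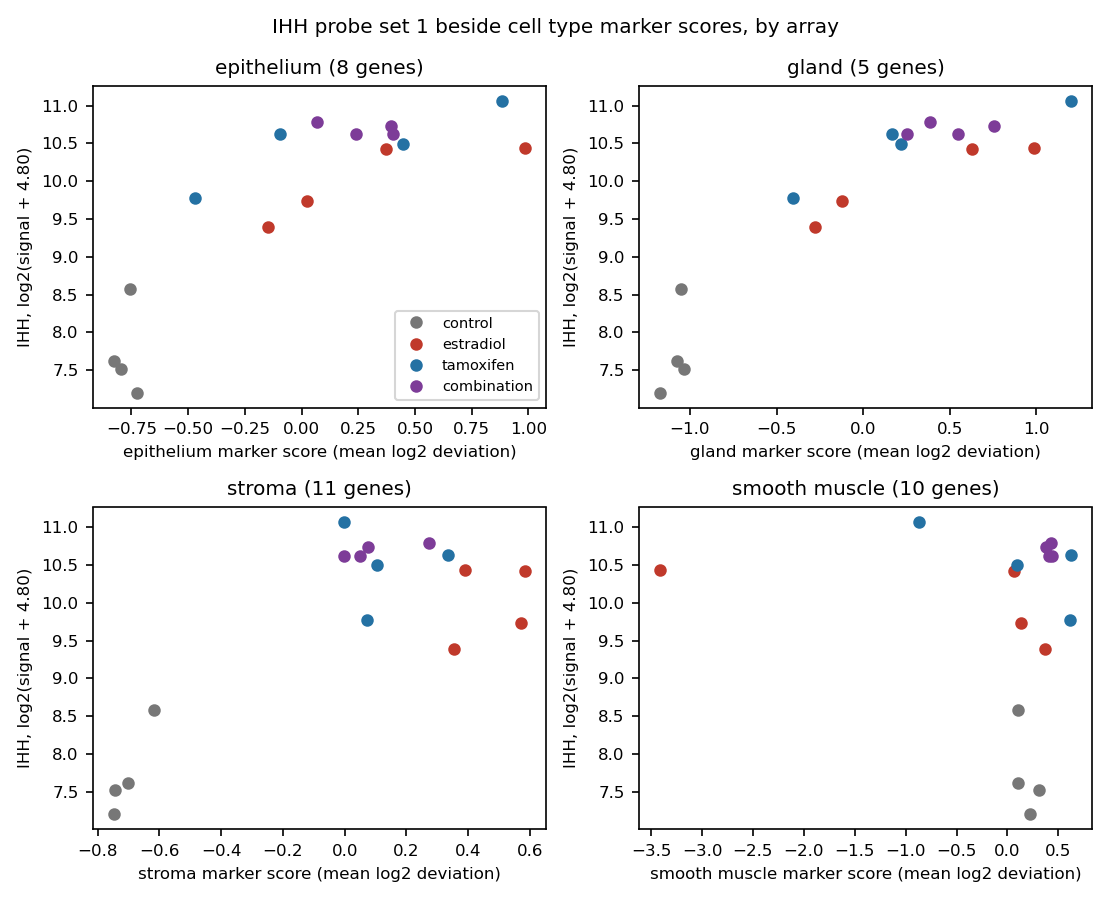
IHH on the log2(signal + 4.80) scale against the score of epithelial, gland, stromal and smooth muscle markers, where a score is the mean log2 deviation of the list's genes from their means over the 16 arrays. The 4 control arrays lie lowest in IHH and in the first 3 scores, and estradiol 4 stands at -3.41 in the smooth muscle score.

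Other genes of the route were followed through 5 lists, chosen with earlier results of these data known. Beside their counts stand the shares over all genes with estradiol, tamoxifen and the combination. These were 16.5%, 8.59% and 10.6% called higher and 13.2%, 7.64% and 9.09% called lower. Of 3 tested genes for related ligands and for ligand release, SCUBE2, a secreted protein that helps hedgehog leave the cell, fell by 0.75 with estradiol (adjusted p = 0.0256) and rose by 0.82 with the combination (adjusted p = 0.0254). SCUBE2 was 1.56 higher with the combination than with estradiol (adjusted p = 0.00647), which was called in all 8 fits without 1 array, and its interaction was 1.41 (adjusted p = 0.0154). The call of SCUBE2 with estradiol was lost without control 4 or estradiol 4, and that with the combination was kept in 3 of 8 fits. SCUBE3, of the same family, rose by 0.60 with estradiol (adjusted p = 0.0280), kept in 4 of 8 fits. None was called with tamoxifen, and without estradiol 4 and tamoxifen 1 SCUBE2 was no longer called with estradiol (adjusted p = 0.0738).

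None of the 5 tested coreceptor genes was called against control. GPC3, a glypican that binds hedgehog at the cell surface, was 1.86 higher with the combination than with estradiol (adjusted p = 0.0495), which held in 1 of 8 fits without 1 array. That call was lost without estradiol 4 and tamoxifen 1 (adjusted p = 0.0609), and GPC3 was then called higher than control with tamoxifen (change 1.44, adjusted p = 0.0280) and the combination (change 1.09, adjusted p = 0.0446).

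Of 20 tested genes of signal relay downstream of SMO, 0, 1 and 1 rose and 4, 1 and 2 fell with estradiol, tamoxifen and the combination. Over all genes 13.2%, 7.64% and 9.09% were called lower, so these few lower calls are near the general share. IFT172, which carries cargo along the primary cilium where the signal is relayed, fell by 0.59 with estradiol (adjusted p = 0.00706). KIF3A, a motor of the same transport, fell by 0.51 with estradiol (adjusted p = 0.0309) and by 0.84 with the combination (adjusted p = 0.00350). EVC2, which acts beside SMO at the cilium, fell by 0.70 with estradiol (adjusted p = 0.0324). ARRB2, an arrestin that helps SMO into the cilium, fell by 0.37 (adjusted p = 0.0474), 0.59 (adjusted p = 0.00827) and 0.55 (adjusted p = 0.0107). SPOP, part of a ligase that marks GLI proteins for breakdown, rose by 0.39 with tamoxifen (adjusted p = 0.0277) and by 0.43 with the combination (adjusted p = 0.0149). Leaving out estradiol 4 and tamoxifen 1 reduced the 4 lower with estradiol to 1, IFT172, and raised the 1 lower with tamoxifen to 2. The list's median change was -0.17, -0.24 and -0.17, against 0.012, -0.018 and -0.013 over all genes.

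Of 12 tested genes known as GLI targets in other tissues, 3 rose in each arm, the same 3 genes: MYCN, SFRP1 and CCND1. MYCN, a growth-promoting transcription factor, rose by 1.96 (adjusted p = 0.00336), 2.16 (adjusted p = 0.00448) and 2.22 (adjusted p = 0.00294), called in all 8 fits in each arm. SFRP1, a secreted WNT antagonist, rose by 1.17 (adjusted p = 0.00782), 1.08 (adjusted p = 0.0218) and 1.09 (adjusted p = 0.0190). CCND1, the cyclin that starts the cell cycle, rose by 0.80 (adjusted p = 0.0247), 0.96 (adjusted p = 0.0174) and 1.34 (adjusted p = 0.00234), but its estradiol call was kept in 4 of 8 fits and lost without estradiol 4 and tamoxifen 1 (adjusted p = 0.0529). The call of SFRP1 was lost without combination 1, and with tamoxifen without control 1, tamoxifen 3 or tamoxifen 4; that of CCND1 with tamoxifen was lost without control 1 or tamoxifen 4. FST, the activin antagonist follistatin, fell by 1.00 with estradiol (adjusted p = 0.0187), lost without control 4 or estradiol 1. RAB34 fell by 0.31 with the combination (adjusted p = 0.0442), kept in 1 of 8 fits. Without estradiol 4 and tamoxifen 1, 2 genes of the list were higher and 2 lower with estradiol, 3 and 0 with tamoxifen and 3 and 1 with the combination. The list's median change, -0.21, -0.01 and 0.20, was near that of all genes for tamoxifen and on either side of it for the others.

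Of 15 tested uterine genes that act around IHH and NR2F2, 9 rose with estradiol, 6 with tamoxifen and 4 with the combination, and GATA2 fell in each. Over all genes 16.5%, 8.59% and 10.6% were called higher. FOXA2 and SOX17 are also among the gland genes above and HAND2 among the stromal markers, so the lists are not independent. GATA2, a transcription factor that works with the progesterone receptor upstream of IHH in the mouse uterus, fell by 0.66 (adjusted p = 0.000593), 0.80 (adjusted p = 0.000533) and 0.70 (adjusted p = 0.000812). PGR, the progesterone receptor gene, rose by 1.26 with estradiol (adjusted p = 0.00115) and by 0.85 with tamoxifen (adjusted p = 0.0220), and was 0.64 higher with the combination without a call (adjusted p = 0.0657). SOX17, an epithelial transcription factor that binds near IHH in the mouse, rose by 1.79 (adjusted p = 0.00128), 1.32 (adjusted p = 0.0155) and 1.53 (adjusted p = 0.00619). GATA2 was thus lower in the arms where SOX17 was higher.

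FOXA2, the transcription factor of uterine glands, rose by 1.80 (adjusted p = 0.00207), 2.15 (adjusted p = 0.00185) and 2.25 (adjusted p = 0.00106). EGFR, the epidermal growth factor receptor gene, rose by 1.84 (adjusted p = 3.73e-05), 1.37 (adjusted p = 0.000793) and 1.47 (adjusted p = 0.000358). VCAN, a stromal matrix proteoglycan, rose by 1.75 (adjusted p = 0.000687), 0.99 (adjusted p = 0.0336) and 1.14 (adjusted p = 0.0153). WNT4, a signal of the decidualising stroma, rose by 2.09 with estradiol (adjusted p = 0.00522) and 1.53 with tamoxifen (adjusted p = 0.0451), with 1.36 and no call for the combination (adjusted p = 0.0634). The tamoxifen calls of WNT4 and VCAN were each kept in 2 of 8 fits, and that of PGR was lost without control 1 or tamoxifen 1. Without estradiol 4 and tamoxifen 1, the tamoxifen count of 6 fell to 3, the combination count went to 5 higher and 2 lower, and the 9 higher with estradiol remained 9 in number.

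HAND2, a stromal transcription factor under progesterone control, rose by 0.80 with estradiol (adjusted p = 0.00240) and was lower with the combination than with estradiol (change -0.70, adjusted p = 0.0495), the latter kept in 1 of 8 fits and lost without estradiol 4 and tamoxifen 1 (adjusted p = 0.0805). HOXA10, a homeobox gene of the uterus, rose by 0.51 with estradiol (adjusted p = 0.0124). NR2F1, the close relative of NR2F2, rose by 0.41 with estradiol (adjusted p = 0.0260), kept in 3 of 8 fits. NR2F1 was lower than with estradiol in the combination (change -0.73, adjusted p = 0.0174, lost without estradiol 1 or combination 1) and with tamoxifen (change -0.59, adjusted p = 0.0454, kept in 2 of 8 fits). ESR1, the estrogen receptor gene, was 0.54 higher with estradiol without a call (adjusted p = 0.0691).

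**Figure D5:**
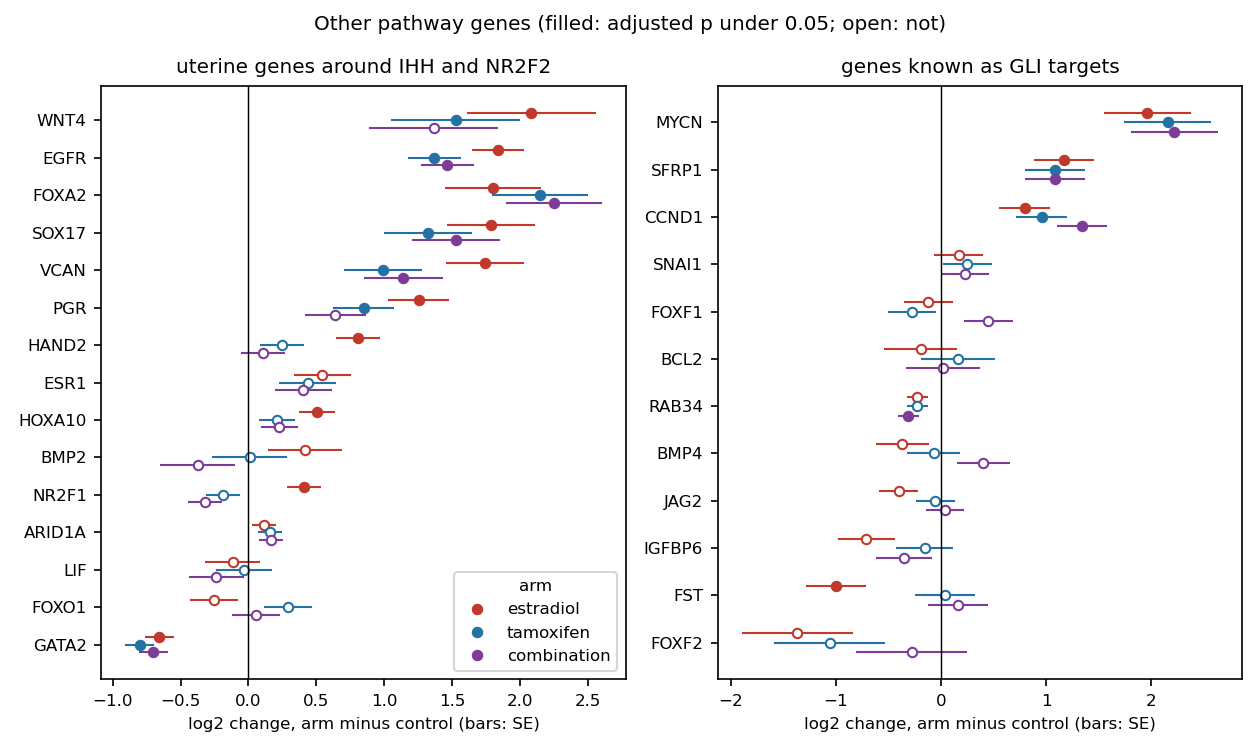
Log2 change against control, with its SE, of the uterine genes around IHH and NR2F2 (left) and of genes known as GLI targets (right) in the 3 treated arms. Filled points have an adjusted p under 0.05. GATA2 lies left of 0 in all arms, at -0.66, -0.80 and -0.70, and MYCN, SFRP1 and CCND1 are the GLI targets filled in all arms.

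The genes whose pattern over all 16 arrays was most like that of IHH, among 10699 compared, were NEFH, a neurofilament gene (Pearson r = 0.979), ATP6V0A4, a proton pump subunit (0.971), FRAS1, a basement membrane protein (0.962), FOXA2 (0.956) and TOM1 (0.956). Arms and arrays both enter these values. As deviations from the arm means the same 5 genes had r of 0.83, 0.79, 0.90, 0.79 and 0.77. Those most like PTCH1 were LOC710765, NOPCHAP1 and LOC709134, with r of 0.924, 0.920 and 0.916. For HHIP they were HAPSTR2, APOD and ZNF391, with r of 0.909, 0.907 and 0.898. For GLI1 they were CENPM, MLPH and FOXA2, with r of 0.934, 0.930 and 0.927, so FOXA2 was on the lists of IHH and GLI1. FOXA2 also enters the gland score, so that score's r with IHH and GLI1 is not separate from these values. For NR2F2 they were NOP53, RPLP1 and TMEM255A, with r of 0.877, 0.877 and 0.876. All these r were the highest of many and are descriptions.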

How the data were processed

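Per the labels, RNA of frozen endometrium was amplified once and labelled with biotin. The deposited values are intensity values, 1 per probe set and array, made with GCOS, Affymetrix Expression Console and MAS5 per the submitters' processing notes. Versions and the scaling target are not given in the sources used here. Such values are relative to an array's total, and dim ones are noisy.

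The pseudocount was set to the 10th percentile over the table. The dimmest 40% by mean over all arrays, and 99 control probe sets, were left out. limma 3.58.1 in R 4.3.3 was fitted with a mean per arm, a variance trend and 12 residual degrees of freedom, and was tested on simulated data. Alternatives changed the pseudocount, filter, normalization, variance model and arrays. Correlations used 100000 two-sided permutations within arms.

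The platform annotation gives 24969 probe sets 1 symbol, 361 several and 27535 none. Members, 5 pathway lists (68 genes, 55 tested) and 9 cell type lists (84 genes, 59 tested) were chosen with earlier results of these data known. SHH, HHAT, SCUBE1, CSNK1D, ULK3, CCND2, FOXL1, PDGFRA and HSD11B2 were among the listed genes with no probe set of their own, and DHH, DISP2 and LRP2 were dim. Named were all members, up to 3 called genes of each pathway list and comparison by smallest p, the 2 brightest markers of each cell list with MKI67, and the genes most like IHH (5) and PTCH1, HHIP, GLI1 and NR2F2 (3 each). PGR, ESR1, SOX17, WNT4, HOXA10 and RAB34, and some calls of other named genes, were added after their values were seen. Animals were assigned at random, per the series design, so arrays of an arm are separate animals. Cross-hybridisation was not examined.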

Additional observations from a re-analysis of the deposited data

Results flagged for a closer look

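IHH had a called interaction of estradiol and tamoxifen in both probe sets: the effect of 1 drug on IHH differed with the presence of the other. The interaction was -2.07 in the first probe set and -1.37 in the second, with limma adjusted p of 0.0101 and 0.0210. Both were called in every alternative fit run.

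In the second HHIP probe set, which is dim and was left out of the main fit, combination 3 lay apart from the other 3 combination arrays. Its log2 value was 4.43, and its gap to the nearest array took up 0.866 of the arm's range, above the value that Dixon's test allows for 4 samples. In all, 52 sets of 4 arrays were examined this way, and chance flags about 1 in 20.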

How the results depend on the processing

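No member result changed direction while called. Over single probe sets and comparisons, 1122 values kept their side of the threshold, 50 lost a call and 11 gained one. Most of the values kept had no call to lose. All lost calls were of SMO, GLI1, HHIP or PTCH1 against control. Of 18 alternatives, SMO lost its tamoxifen call in 12 and its combination call in 6. GLI1 lost its estradiol, tamoxifen and combination calls in 10, 1 and 3 of 18. Of 17 alternatives, HHIP lost its estradiol call in 7 and its tamoxifen call in 8, and PTCH1 its estradiol call in 3. All IHH calls held. For estradiol against control, 2 member genes were called when only the arms compared were fitted and 2 with the replicate block, against 4, and 1 to 5 without 1 array. For tamoxifen against control the number was 2 without a filter, with only those arms, with the block, and without estradiol 4 and tamoxifen 1, against 4, and 1 to 3 without 1 array. For the combination against control it was 5 without estradiol 4 and tamoxifen 1, against 3, and 1 to 3 without 1 array (1 without combination 1). Neither estradiol 4 nor tamoxifen 1 is in that comparison, so its changes stayed the same and only the shared spread differed. That spread bears on the calls of all genes. The share of all genes called in that fit is not given here, so the gain is not read as a result about the members. The replicate numbers are not said to pair animals. The correlation of same-numbered arrays' deviations ran from -0.266 to 0.0946 over 24 pairs, which cannot exclude a weak pairing. The block moved the probe sets called from 8062, 4214 and 5015 to 7397, 3735 and 4411.

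Probe sets called over the whole table ran, without 1 array, from 2716 to 4051 for tamoxifen, from 3124 to 4412 for the combination against control, from 46 to 1135 for the combination against estradiol (385 with all), from 0 to 615 for tamoxifen against estradiol (180 with all), from 0 to 1 for the combination against tamoxifen, and from 1803 to 4271 for the interaction (3019 with all). With only the arms compared there were 2714 for tamoxifen against control, 93 for the combination against estradiol and 0 for tamoxifen against estradiol. With no filter there were 221 for the combination against estradiol. Within-arm r with IHH, without 1 array, ran from 0.38 to 0.82 for HHIP, 0.19 to 0.56 for SMO and 0.35 to 0.60 for NR2F2. It was 0.71 for PTCH1 without estradiol 4 and tamoxifen 1. Chosen after seeing the data, leaving out control 3 and tamoxifen 2 gave 0.65 for PTCH1, 0.58 for SMO and 0.51 for NR2F2. The cause of these shifts was not tested. With 60% of probe sets left out, PTCH1 and HHIP were too dim to be tested. The interaction needs all arms, so it was not fitted with fewer.

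The main limits are 4 arrays per arm, whole tissue whose mix of cells differed between arms, dim PTCH1 and HHIP signals, and an unstated scaling target.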
